A study of Mus musculus with 9 samples.

Results

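Csmd1, Cntnap2, Macrod2 and Lrp1b are among the longest protein-coding genes of the mouse, and their DNA was followed through a high-salt extraction of E14Tg2a embryonic stem cell nuclei. The members are StyI restriction fragments whose midpoint lies in 1 of 4 windows of the mm9 genome: chr8:15950000-17450000 for Csmd1, chr6:45100000-47200000 for Cntnap2, chr2:140300000-142100000 for Macrod2 and chr2:40600000-42400000 for Lrp1b. The windows hold 1717, 2036, 1726 and 1546 fragments in that order, 7025 of the 3053721 fragments of the tables. Position alone chose the fragments within each window, but the 4 genes were chosen with earlier results of these data known.

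All 9 libraries are genomic DNA of 1 cell line, E14Tg2a, of 129P2 background, kept undifferentiated with LIF, and the labels name no genotype, agent or time that sets them apart. High-salt recovered sequences (HRS) are StyI fragments kept with the insoluble material of salt-extracted nuclei (3 libraries). The Loop libraries (3) hold the fragments released from the same kind of preparation, and the input libraries (3) hold unfractionated genomic DNA. The inputs are titled D0, D12 and D21, titles whose meaning no label gives, and they form 1 group here. Since separate cultures are nowhere stated, a p-value covers only how far these libraries scatter, and that scatter may be technical. Only DNA was measured, so the cell type could not be set against RNA markers.

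The genes share a known architecture, with small exons strewn over introns of very large size. Csmd1 encodes a membrane protein of CUB and sushi domains that restrains complement, and Cntnap2 encodes Caspr2, a neurexin-family protein that gathers potassium channels beside the nodes of myelinated axons. Macrod2 encodes an enzyme that removes mono-ADP-ribose from proteins, and Lrp1b encodes an endocytic receptor of the LDL receptor family. Genes of this size are known for transcription in neurons, late replication and, in human cells, overlap with common fragile sites. Neither expression nor replication was measured here.

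The genes span 1642848 bp (Csmd1, ENSMUSG00000060924.15), 2241333 bp (Cntnap2, ENSMUSG00000039419.17), 1997664 bp (Macrod2, ENSMUSG00000068205.14) and 2058309 bp (Lrp1b, ENSMUSG00000049252.17) in RefSeq on build GRCm38.p6. They rank 8, 3, 6 and 5 by length among 21900 protein-coding genes. Flrt3, an adhesion protein gene, lies inside Macrod2, and C030002A05Rik, also annotated as protein-coding, lies inside Csmd1. Exons, introns and start sites were not placed on the windows, since no mm9 annotation was used here. Each window is shorter than the gene it stands for on that build, and its fragments are named by position only.

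StyI cuts at CCNNGG where each inner base is A or T, and these hexamers set which stretches of a gene can be counted as separate fragments. The 250 bases before annotated starts are printed here, from RefSeq on GRCm38.p6 and the plus strand, to show what such a site looks like beside a start of these genes. Capitals mark the StyI site. The table held starts of 2 of the 4 genes, Macrod2 (chr2:140395180-140395429) and Cntnap2 (upstream start chr6:45059811-45060060, downstream start chr6:47244146-47244395).
Macrod2: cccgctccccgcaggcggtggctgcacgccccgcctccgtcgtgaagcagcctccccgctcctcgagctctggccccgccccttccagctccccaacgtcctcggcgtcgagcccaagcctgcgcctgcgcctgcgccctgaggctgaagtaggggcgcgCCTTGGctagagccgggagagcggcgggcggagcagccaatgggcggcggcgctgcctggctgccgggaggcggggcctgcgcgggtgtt
Cntnap2, upstream start: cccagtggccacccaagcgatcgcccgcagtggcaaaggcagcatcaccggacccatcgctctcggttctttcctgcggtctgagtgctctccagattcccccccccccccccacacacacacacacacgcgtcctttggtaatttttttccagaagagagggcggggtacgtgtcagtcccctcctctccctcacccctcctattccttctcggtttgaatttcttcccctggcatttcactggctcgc
Cntnap2, downstream start: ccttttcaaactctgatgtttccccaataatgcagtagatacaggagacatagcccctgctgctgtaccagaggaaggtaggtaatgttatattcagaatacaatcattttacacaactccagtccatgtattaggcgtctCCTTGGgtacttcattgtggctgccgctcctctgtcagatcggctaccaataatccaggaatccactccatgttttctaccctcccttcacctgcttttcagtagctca
The Macrod2 stretch has a site 90 bases before the start and the downstream Cntnap2 stretch has one 109 bases before it, whereas no such hexamer occurs in the upstream Cntnap2 stretch. A site was present in 29.2% of the 32851 promoter stretches of this length in the same table. The search covered both strands, on which the motif reads alike. These coordinates belong to another build than the counts and were not joined to them.

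The 4 windows differ in how densely StyI divides them. Csmd1 had 11.4 fragments per 10 kb with a median length of 604 bp, close to the 11.8 fragments per 10 kb and above the 539 bp of the whole genome. Cntnap2 had 9.70 fragments per 10 kb (median 655 bp), Macrod2 9.59 (median 704 bp) and Lrp1b 8.59 (median 787.5 bp). Set among 1405 tiles of 1.8 Mb over the rest of the genome, the fragment density of Lrp1b lay at percentile 0.712 and those of Macrod2, Cntnap2 and Csmd1 at percentiles 11.5, 12.9 and 47.0. Fragments of up to 200 bp made up 20.3% of the fragments in Csmd1, 18.9% in Cntnap2, 18.6% in Macrod2 and 17.7% in Lrp1b, against 23.4% genome-wide. Of the fragments, 12.3% in Csmd1, 20.7% in Cntnap2, 10.5% in Macrod2 and 17.6% in Lrp1b had no count in any library, against 16.4% genome-wide.

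Libraries held between 39.1 and 62.9 M counts over all fragments, the lowest being HRS replicate 3. That library and Loop replicate 3 stood apart from the other fraction libraries in carrying more of chromosome 8, where Csmd1 lies. The share of counts on chromosome 8, relative to the input mean, was 0.988, 1.01 and 1.18 in HRS replicates 1, 2 and 3, against 1.01, 1.02 and 1.21 in the Loop replicates. Results that rest on these libraries are given with and without them.

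Csmd1 was lower in HRS than in both Loop and input. Its window took 349, 388 and 333 CPM (counts per 1000000 of the library total) in HRS replicates 1, 2 and 3, against 451, 449 and 500.6 CPM in the Loop replicates and 452, 479 and 527 CPM in the D0, D12 and D21 inputs. Every HRS library lay below every Loop and every input library, while the Loop and input ranges overlapped. The means were 357 ± 28.4, 467 ± 29.1 and 486 ± 37.6 CPM for HRS, Loop and input (SD, n = 3 each).

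Over Loop, the log2 ratio for Csmd1 in HRS was -0.38 ± 0.07 (SE), a 1.30-fold difference with a Benjamini-Hochberg adjusted p of 0.00353 in edgeR's quasi-likelihood test over 1458 windows and tiles. It ranked 44 from the lowest, and 4 from the lowest of 74 on chromosome 8. Of all windows and tiles, 20.2% were called lower in HRS and 15.4% higher. Against input the log2 ratio was -0.36 ± 0.06 (SE, adjusted p 0.00315), the lowest of 74 windows and tiles on chromosome 8, where 16.1% of windows and tiles over the genome were called lower and 21.7% higher. Loop over input gave -0.02 ± 0.07 (SE, adjusted p 0.833), with a 95% interval of -0.18 to 0.14. In that comparison 0 of the 1458 windows and tiles were called. On the scale of chromosome 8 alone, Loop over input was -0.14 (adjusted p 0.0848). The HRS over Loop difference of Csmd1 also held on the scale of chromosome 8 alone (-0.33, adjusted p 0.0115) and without both replicate 3 fractions (-0.30).

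Within chromosome 8 the difference was visible in each library. Relative to the input mean, the share of chromosome 8 counts that fell in Csmd1 was 0.727, 0.793 and 0.580 in HRS, against 0.920, 0.903 and 0.850 in Loop and 0.904, 1.001 and 1.10 in input. HRS replicate 3 was the lowest of the 9, and all 3 HRS values lay below the lowest Loop value.

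**Figure D1:**
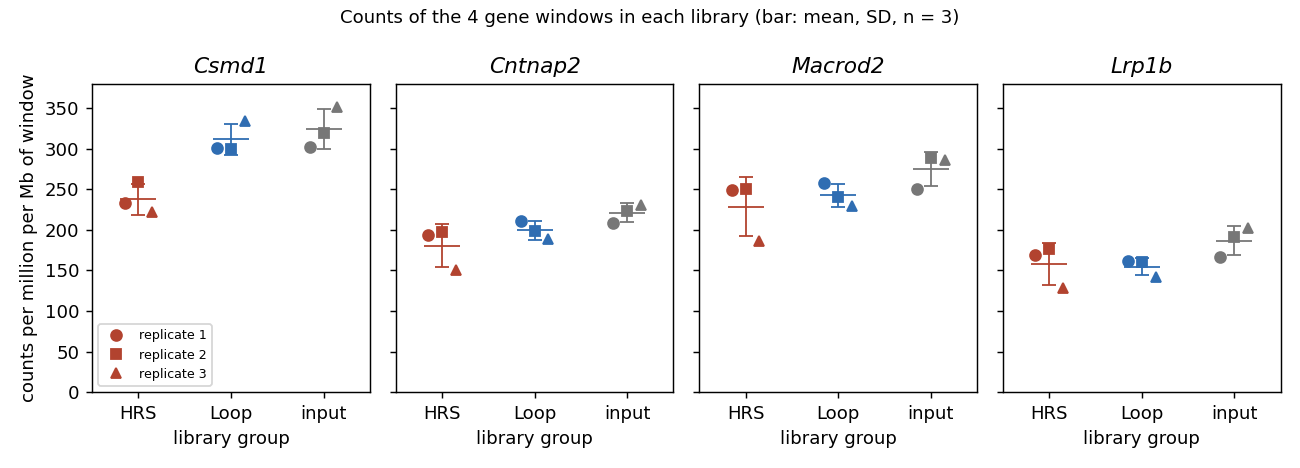
CPM per Mb of window (y axis) in HRS, Loop and input for the 4 genes. Points are libraries (circle, square and triangle for replicates 1, 2 and 3, or inputs D0, D12 and D21), and bars give the mean and SD, n = 3. In Csmd1 the HRS points lie below all Loop and input points, whereas in the other genes HRS and Loop overlap.

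Cntnap2, the longest of the 4, was lower in HRS than in input by a small amount, and its call against Loop depended on the fit. HRS replicates 1, 2 and 3 held 407, 415 and 317 CPM, against 443, 417 and 396 CPM in Loop and 438, 469 and 485 CPM in input. HRS lay below input in every library, but HRS and Loop overlapped, with HRS replicate 3 well below the other 2 HRS libraries. The log2 ratio of HRS over input was -0.21 ± 0.07 (SE, edgeR adjusted p 0.0494). It missed the threshold of 0.05 without HRS replicate 1 (adjusted p 0.0606), without the D12 input (0.0935) and without the D21 input (0.108).

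Against Loop the log2 ratio of Cntnap2 was -0.13 ± 0.08 (SE), with a 95% interval of -0.31 to 0.04 and an edgeR adjusted p of 0.218. Blocked on replicate number, since the numbers met the limit set for pairing, the ratio was -0.14 and the adjusted p 0.0232. The pairing was weak, as the second pair correlated at 0.108, and at 0.0946 without chromosomes 8 and 11, under the limit of 0.1. Without both replicate 3 fractions the ratio of Cntnap2 over Loop was -0.07 (adjusted p 0.0200). Loop over input was -0.12 ± 0.04 (SE, adjusted p 0.122), and without the D0 input -0.15 (adjusted p 0.0278).

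Macrod2 passed the threshold in none of the 3 comparisons. HRS replicates 1, 2 and 3 held 448, 449 and 335 CPM, against 463, 433 and 413 CPM in Loop and 451, 520 and 514 CPM in input. HRS replicate 3 was the lowest of the 9 libraries, and the other 2 HRS libraries fell inside the Loop range. Every HRS library lay below every input, although the distance was small for HRS replicates 1 and 2 against D0. The log2 ratios were -0.08 ± 0.08 for HRS over Loop (95% interval -0.28 to 0.12, adjusted p 0.499), -0.19 ± 0.09 for HRS over input (-0.38 to 0.00, adjusted p 0.108) and -0.15 ± 0.05 for Loop over input (-0.27 to -0.02, adjusted p 0.122; SE throughout, edgeR). Without the D0 input Macrod2 was called lower in HRS (-0.26, adjusted p 0.0465) and in Loop (-0.21, adjusted p 0.0155). Neither call held with fragment length corrected, as given below. Without HRS replicate 3 the ratio of HRS over Loop in Macrod2 was 0.02.

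Lrp1b, with the fewest StyI sites, was the gene whose uncorrected ratio of HRS over Loop lay above 0, though within its error. HRS replicates 1, 2 and 3 held 305, 319 and 232 CPM, against 290, 288 and 256 CPM in Loop and 300.05, 344 and 363 CPM in input. HRS replicates 1 and 2 were above all Loop libraries and replicate 3 was below them, so the groups overlapped. HRS over Loop gave a log2 ratio of 0.04 ± 0.09 (SE, edgeR adjusted p 0.751), with a 95% interval of -0.18 to 0.26. Without HRS replicate 3 it was 0.15 (adjusted p 0.0364), and without HRS replicate 2 it was -0.01.

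Loop over input was lowest in Lrp1b, at -0.24 ± 0.07 (SE), and every Loop library lay below every input. In edgeR this missed the threshold (adjusted p 0.0919), as did all 1458 windows and tiles in this comparison, of which 223 were higher and 254 lower at an unadjusted p under 0.05. DESeq2 called 148 higher and 140 lower, Lrp1b among them (adjusted p 0.0141), and edgeR called Lrp1b without the D0 input (-0.31, adjusted p 0.0139). HRS over input was -0.16 ± 0.10 (SE, adjusted p 0.246, 95% interval -0.38 to 0.07).

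The level of Csmd1 was also set against the other 3 genes within each library, a comparison added after the values above were seen. The ratio of Csmd1 counts to the summed counts of Cntnap2, Macrod2 and Lrp1b was 0.301, 0.328 and 0.376 in HRS, against 0.377, 0.395 and 0.470 in Loop and 0.380, 0.359 and 0.387 in input. The HRS and Loop libraries did not overlap, although HRS replicate 3 and Loop replicate 1 lay side by side. The mean log2 difference was -0.30, and the exact two-sided permutation p of 0.1 (adjusted 0.3 over 3 comparisons) is the smallest that 3 against 3 can give. On fragments over 200 bp the groups overlapped and the exact p was 0.2, and HRS and input overlapped on all fragments (exact p 0.2).

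Fragment length separated the fractions in all 4 genes, as it did genome-wide. In Csmd1 fragments of up to 200 bp held 25.6% ± 1.76 of the HRS counts, 46.2% ± 4.94 of the Loop counts and 22.0% ± 1.49 of the input counts (mean ± SD, 3 libraries a group). In Cntnap2 the shares were 23.3% ± 1.73, 43.9% ± 5.10 and 20.1% ± 0.410, in Macrod2 23.7% ± 0.820, 44.5% ± 5.89 and 21.03% ± 0.722, and in Lrp1b 21.6% ± 1.13, 42.4% ± 6.22 and 18.7% ± 0.499, in the same order of groups. In each gene every HRS library lay below every Loop library and above every input, and the exact two-sided permutation p was 0.1, the smallest possible, in each of the 12 comparisons (adjusted 0.1). Genome-wide the shares were 30.1% in HRS, 51.7% in Loop and 26.3% in input, above each of the 4 genes in each group. The groups did not overlap genome-wide either, with an exact permutation p of 0.1 in each comparison. The separation was therefore not particular to these genes.

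The fragment with most counts in each window was short and most abundant in Loop. In Csmd1 it was a 96 bp fragment (16166336 to 16166432) with 37, 66 and 42 counts in HRS, against 102, 139 and 182 in Loop and 64, 71 and 64 in input. In Cntnap2 it was 64 bp long (47150949 to 47151013), with 71, 55 and 55 counts in HRS, 195, 232 and 148 in Loop and 70, 51 and 46 in input. Macrod2 had a 79 bp fragment (140655622 to 140655701) with 67, 54 and 37 counts in HRS, 155, 199 and 173 in Loop and 62, 66 and 63 in input. The leading fragment of Lrp1b, 117 bp long (41521079 to 41521196), had 69, 73 and 30 counts in HRS, 116, 163 and 154 in Loop and 42, 63 and 58 in input. Each Loop library exceeded each HRS library and each input in these 4 fragments, in counts and in CPM. Each fragment held 0.346% to 0.508% of its window's counts. How many other short fragments do so was not tested. Genome-wide, fragments of up to 200 bp held 51.7% of the Loop counts, against 30.1% in HRS and 26.3% in input, so the order is not particular to these 4. The 4 fragments were chosen by their total over all libraries, so the differences are descriptions.

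Because short fragments are more abundant in Loop and rarer in the 4 genes than in the genome, each comparison was also fitted with fragment length corrected. The expected count of each window in each library was taken from 20 length classes and entered as an offset. Corrected, Csmd1 stayed lower in HRS than in Loop (log2 ratio -0.39 ± 0.07, SE, edgeR adjusted p 0.00609), where 18.7% of windows and tiles were called lower and 20.7% higher, and lower than in input (-0.36, adjusted p 0.00297). Cntnap2 moved to -0.20 against Loop (adjusted p 0.0587, and 0.00332 blocked on replicate number) and stayed at -0.20 against input (adjusted p 0.0463).

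Corrected, Macrod2 had a log2 ratio of HRS over Loop of -0.16 (edgeR adjusted p 0.147, and 0.0128 blocked). Lrp1b changed sign to -0.08 (adjusted p 0.460), but was at 0.011 without HRS replicate 3. The ratios of Loop over input moved to 0.03, -0.01, -0.02 and -0.07 for Csmd1, Cntnap2, Macrod2 and Lrp1b, with adjusted p of 0.756 to 0.944. Without the D0 input, the Loop over input ratio of Lrp1b was -0.31 before the correction and -0.13 with it (corrected edgeR adjusted p 0.0624). For Macrod2 without D0, the corrected ratios were -0.078 for Loop over input (adjusted p 0.143) and -0.24 for HRS over input (adjusted p 0.0505).

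**Figure D2:**
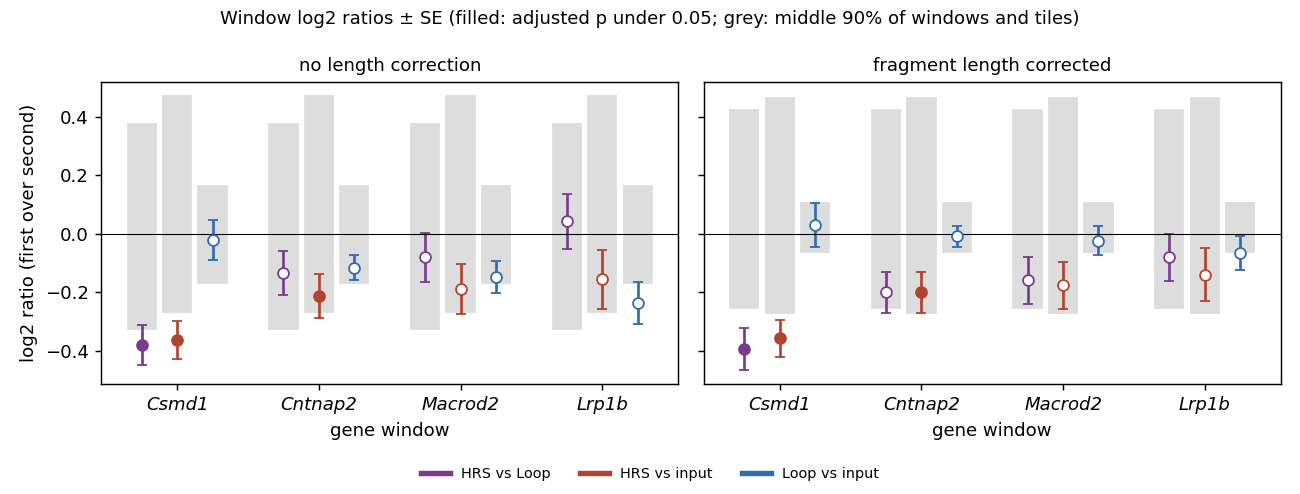
Log2 ratios of HRS over Loop, HRS over input and Loop over input (y axis, estimate and SE) for the 4 gene windows, uncorrected on the left and with fragment length corrected on the right. Filled points passed an adjusted p of 0.05, and grey bars span the middle of all windows and tiles. Csmd1 lies below the grey bars in both HRS comparisons, and with the correction the Loop over input points of Cntnap2, Macrod2 and Lrp1b move toward 0 while that of Csmd1 crosses it.

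The difference of Csmd1 was present in fragments of every length. Fitted class by class, HRS over Loop had log2 ratios of -0.40 for fragments of up to 200 bp, -0.41 for those up to 500 bp, -0.39 for those up to 1000 bp and -0.46 for those over 1000 bp, each class starting above the limit before it, with edgeR adjusted p between 0.00242 and 0.00917. All 4 classes were lower than in input too, by log2 ratios of -0.33, -0.41, -0.37 and -0.33 in the same order of length. These 8 calls were made under each alternative scaling and without each library in turn.

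In Cntnap2 fragments of up to 200 bp (-0.21, edgeR adjusted p 0.0366) and over 1000 bp (-0.20, adjusted p 0.0414) were called lower in HRS than in Loop. The other 2 classes had log2 ratios of -0.19 and -0.21 and missed the threshold. Both calls were lost without HRS replicate 1 and without each Loop replicate. Macrod2 had ratios of -0.19 to -0.14 and Lrp1b of -0.10 to -0.01, with no call. Of the 16 pairs of gene and class, 6 were therefore called lower and 0 higher, where 17.7% and 19% of windows and tiles over all classes were called. Blocked on replicate number, 11 were called lower, but no genome-wide share by class was taken for that fit. In 10 kb bins, blocking raised the genome-wide share called lower from 20.4% to 22.8%.

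Against input, HRS was again called lower in 6 of 16 pairs, the 4 of Csmd1 and 2 of Cntnap2 (the class up to 500 bp, -0.23, edgeR adjusted p 0.0265, and over 1000 bp, -0.19, adjusted p 0.0496). Over all windows, tiles and classes 16.9% were called lower and 19.9% higher. Both calls of Cntnap2 were lost without the D12 and without the D21 input. Loop over input gave no call in any class in edgeR, and the ratios of the 16 pairs lay between -0.08 and 0.12. Of 5825 windows and tiles by class 0 were called there, with 298 higher and 198 lower at an unadjusted p under 0.05, and DESeq2 was not run by class.

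**Figure D3:**
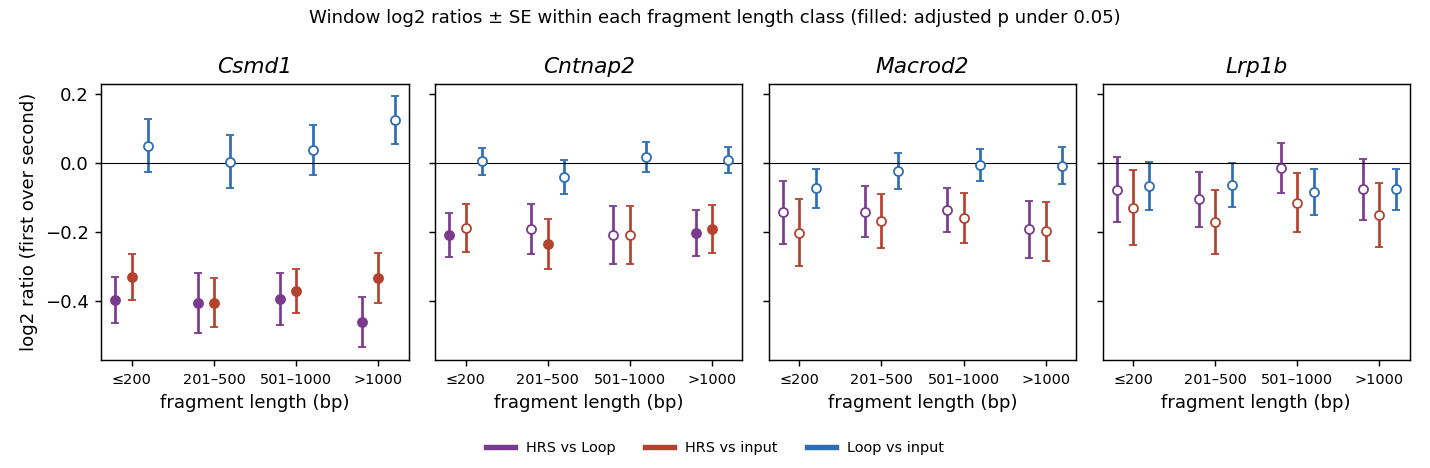
Within-class log2 ratios of HRS over Loop, HRS over input and Loop over input (y axis, estimate and SE) in 4 classes of fragment length (x axis, bp) for the 4 genes. Filled points passed an adjusted p of 0.05. The HRS ratios of Csmd1 lie between -0.46 and -0.33 in all classes, and those of Lrp1b lie between -0.17 and -0.01.

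Along the genes, counts were summed in bins of 10 kb and tested among all bins of the genome. In Csmd1 53 of 149 tested bins were lower in HRS than in Loop and 0 were higher (median log2 ratio -0.35). Genome-wide 20.4% of tested bins were lower and 17.8% higher. Cntnap2 had 34 lower and 14 higher of 202 tested bins (median -0.04), Macrod2 32 lower and 12 higher of 178 (median 0.01), and Lrp1b 14 lower and 15 higher of 172 (median 0.16). Thus the shares lower in HRS were 35.6% in Csmd1, 16.8% in Cntnap2, 18.0% in Macrod2 and 8.14% in Lrp1b, beside that genome-wide 20.4%.

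The bins higher in HRS depended on single libraries. Over the 4 genes they numbered 41, and 16, 23 and 68 without HRS replicates 1, 2 and 3 and 22 without Loop replicate 3, and without both replicate 3 fractions 92. In Cntnap2 they numbered 6 without HRS replicate 1, 8 without Loop replicate 1 and 9 without Loop replicate 2. In Macrod2 they numbered 5, 5 and 22 without HRS replicates 1, 2 and 3 and 6 without Loop replicate 3, and in Lrp1b 5, 6, 26 and 6 under the same omissions. The bins lower in HRS numbered 133 in all and 103 to 130 without each library in turn, and those of Csmd1 40 to 55, while those of Lrp1b fell to 9 without Loop replicate 2.

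With length corrected, fewer bins were called in each gene. Csmd1 had 35 bins lower, 20 of them among the 53 called without the correction, and 0 higher, Cntnap2 had 16 lower and 4 higher, Macrod2 8 lower and 1 higher, and Lrp1b 0 lower and 1 higher, where 8.43% of all bins were called lower and 15% higher. The corrected median log2 ratios were -0.33, -0.13, -0.11 and -0.02 in that order of genes, against a genome-wide median of -0.03.

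**Figure D4:**
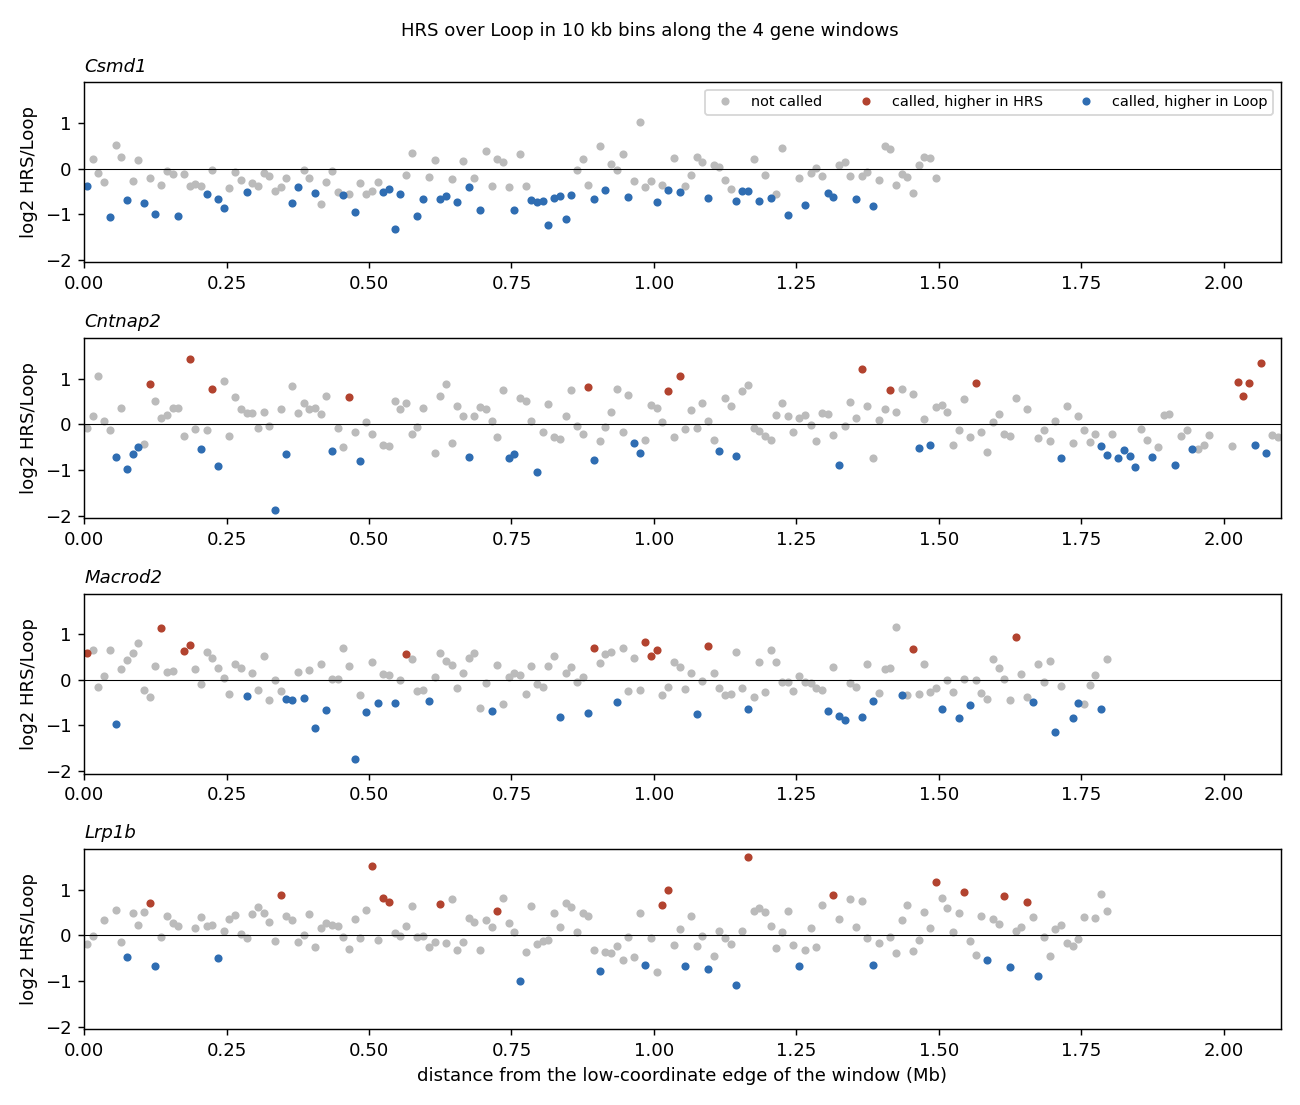
Log2 ratio of HRS over Loop without length correction (y axis) in 10 kb bins along the 4 windows, by distance from the low-coordinate edge (x axis, Mb). Red bins were called higher and blue bins lower in HRS, and grey bins were not called. In Csmd1 all 53 called bins are lower in HRS and are spread over most of the window, while in the other genes calls of both directions are interspersed.

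The lower level of Csmd1 was spread along the gene. All 14 of its 100 kb bins had a log2 ratio of HRS over Loop below 0, from -0.59 to -0.17, and 9 were called lower in edgeR (10 with length corrected), where 25.5% of the genome's 100 kb bins were lower and 24% higher. All 14 were below 0 against input as well, and 10 were called, where 16.8% were lower and 25.1% higher. The bins toward the high-coordinate edge were nearest to 0, with -0.17 at 17200001 to 17300000 and -0.17 at 17300001 to 17400000. The longest run of adjacent 10 kb calls was 80 kb (16730001 to 16810000), in which 3 of the 8 bins passed the threshold with length corrected. In the other genes the 100 kb ratios straddled 0, with 10 of 21 bins below 0 in Cntnap2, 8 of 18 in Macrod2 and 2 of 18 in Lrp1b. With length corrected these were 19, 14 and 9, of which 3 were called lower in Cntnap2 and 0 in the other 2 genes. Called higher were 1 in Cntnap2, 1 in Macrod2 and 0 in Lrp1b. Corrected, 21.2% of the genome's 100 kb bins were lower and 24% higher.

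Single bins show how far the extremes went. The bins named by rule, here and in the next paragraphs, were picked by their HRS over Loop ratio among bins already called. Their differences from Loop are therefore descriptions. In Csmd1 the lowest ratio of the bins named by rule was at 16490001 to 16500000, with 3.47, 3.41 and 2.28 CPM in HRS, against 7.24, 7.85 and 7.66 in Loop and 3.44, 4.88 and 5.25 in input. The HRS and Loop libraries did not overlap, and the ratio was -1.33 ± 0.15 (SE, edgeR adjusted p 1.34e-06), or -0.61 with length corrected (adjusted p 0.00485). A 72 bp fragment held 23.8% of the counts of that bin, which was higher in Loop than in input by 0.88 before the correction and by 0.10 after it.

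In Cntnap2 the lowest named bin was at 45890001 to 45900000, with 2.91, 3.09 and 1.79 CPM in HRS, against 4.83, 5.82 and 5.35 in Loop and 2.88, 3.30 and 3.86 in input. Its ratio of -1.06 against Loop moved to -0.22 with length corrected (edgeR adjusted p 0.342), and a 59 bp fragment held 36.3% of its counts. In Macrod2 the lowest named bin (142000001 to 142010000) had -1.13, or -0.64 corrected (adjusted p 0.0273), and in Lrp1b (41360001 to 41370000) -0.99, or -0.36 corrected (adjusted p 0.0968). Their leading fragments were 52 bp and 112 bp long.

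The other direction was marked in Cntnap2, near the high-coordinate edge of its window. The highest named bin, 47120001 to 47130000, held 4.06, 4.02 and 5.76 CPM in HRS, against 2.61, 2.40 and 2.20 in Loop and 2.80, 3.53 and 2.72 in input. HRS was above every other library there, with a log2 ratio over Loop of 0.92 ± 0.18 (SE, edgeR adjusted p 0.000390) and over input of 0.74 (adjusted p 0.00359). With length corrected these were 0.72 and 0.79, both called. No fragment of that bin held more than 16.1% of its counts.

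Of 705 tested bins in the 4 genes, 4 were called higher in HRS than in input, where 15.2% were genome-wide. All 4 lay within 60 kb around the bin at 47120001 to 47130000, from 47110001 to 47170000. The bin at 47130001 to 47140000 held 4.52, 2.80 and 3.05 CPM in HRS, against 2.10, 1.88 and 2.62 in Loop and 1.67, 1.48 and 1.54 in input, a log2 ratio over input of 1.27 ± 0.18 (SE, edgeR adjusted p 6.12e-05). The bin at 47160001 to 47170000 held 1.805, 1.81 and 1.74 CPM in HRS, against 0.716, 0.620 and 0.732 in Loop and 1.40, 1.45 and 0.815 in input. In both, HRS lay above Loop and input in every library. With length corrected 3 of the 4 bins remained called over input, the exception being 47110001 to 47120000 (adjusted p 0.0710), where a 60 bp fragment held 68.5% of the counts. That bin was lower in HRS than in Loop, though not called (-0.47, edgeR adjusted p 0.0591). A 79 bp fragment held 47.4% of the counts of the bin at 47130001 to 47140000. The HRS and Loop counts of the bins starting at 47110001, 47130001 and 47160001 came to 660, 903 and 383, below the median tested bin (1006). The 4 bins were singled out after their values were seen.

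In Macrod2 the highest named bin (140480001 to 140490000) held 5.59, 4.99 and 4.12 CPM in HRS, against 3.40, 2.61 and 2.52 in Loop and 4.26, 5.28 and 4.93 in input. Its ratio of 0.76 over Loop was 0.40 with length corrected (edgeR adjusted p 0.0333), and HRS and input overlapped. No bin of Csmd1 and none of Lrp1b met the rule in this direction.

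Against input, HRS was lower in 40 of 149 tested bins of Csmd1, 17 of 203 of Cntnap2, 9 of 178 of Macrod2 and 8 of 175 of Lrp1b, and higher only in those 4 bins of Cntnap2. Genome-wide 9.16% of tested bins were lower than input and 15.2% higher. The sum of 74 lower bins was 48, 36 and 23 without the D0, D12 and D21 input, and that of Csmd1 was 26 without HRS replicate 1 and 13 without the D21 input. In Cntnap2, Macrod2 and Lrp1b the lower bins numbered 6, 2 and 1 without the D12 input and 7, 2 and 1 without the D21 input, and 11, 7 and 3 without the D0 input. Those of Lrp1b numbered 5 without HRS replicate 1 and 5 without HRS replicate 3. The 4 higher bins were 13 without HRS replicate 3 and 2 without the D21 input. With length corrected the lower bins numbered 41, 16, 10 and 6 in that order of genes, where 9.72% of all bins were lower and 15.5% higher, and 3 of Cntnap2 were higher.

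Loop differed from input in many bins before the correction and in almost none after it. Lower and higher bins in Loop numbered 21 and 25 in Csmd1, 50 and 26 in Cntnap2, 52 and 24 in Macrod2 and 55 and 11 in Lrp1b, where 18% and 21.5% of tested bins of the genome were lower and higher. The lower bins of the 4 genes, 178 in all, numbered 96 without the D12 and 88 without the D21 input, and the 86 higher bins 48 without the D0 input. With length corrected 0 were lower and 2 higher of 705 tested in edgeR, 1 in Csmd1 and 1 in Macrod2, with 49 at an unadjusted p under 0.05. Genome-wide 0.0782% and 0.266% were then called.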

How the data were processed

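The fragment tables hold whole-number counts per StyI fragment, deposited by the authors as 1 table per library, and 1 fragment's count comes from tags at its ends per the labels' protocols. CASAVA 1.8.2 and build mm9 are named per the submitters' processing notes. No source used here gives the aligner settings or what was done with tags of several matches. The last interval of each of 21 chromosomes was left out. Members and lists were chosen with earlier results of these data known, as were the length limits.

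Counts were summed by midpoint over the 4 windows and over tiles of 1.8 Mb covering the rest of the genome, in bins of 10 kb and 100 kb, and by length class. edgeR 4.0.16 in R 4.3.3 (glmQLFit, glmQLFTest) was run with TMM, filterByExpr (minimum count 10) and Benjamini-Hochberg adjustment over each whole table at 0.05, on the libraries of the groups compared. SE is the log2 ratio over the square root of F. The length correction used expected counts from 20 length classes as an offset. Alternatives were DESeq2 1.42.0, other scalings, no filter, single-chromosome scale, the letter A or B from the names of the repeat tables as a term, and each library left out. The rule for named bins took, in each gene, the largest and smallest HRS over Loop ratio among called bins of 1 sign in all 3 numbered pairs that held no fewer counts than the median bin. It took the fragment with most counts too. The listed genes over 1 Mb other than these 4 were not placed, since no mm9 annotation was used here.

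Same-numbered HRS and Loop libraries correlated at 0.158, 0.108 and 0.232 in their deviations from the group means, above the limit of 0.1 for pairing. The differently numbered HRS replicate 2 and Loop replicate 1 correlated at 0.126, above the second pair. Without chromosomes 8 and 11 the second was 0.0946. The pairing comes from the numbers in the titles. Inputs carry no such numbers. The fits were also run on simulated counts, drawn with no chromosome shift like that of the replicate 3 libraries. Such a run cannot speak for calls that turn on those libraries.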

Additional observations from a re-analysis of the deposited data

How the results depend on the processing

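Csmd1 kept its direction and its call against Loop and against input under every alternative run, from -0.43 to -0.31 against Loop and from -0.42 to -0.32 against input without each library in turn, corrected or not. The other windows lay near the threshold or near 0, and the cause of their changes was not tested. Without each library in turn and with no length correction, HRS over Loop ranged from -0.17 to -0.046 in Cntnap2, from -0.12 to 0.020 in Macrod2 and from -0.010 to 0.15 in Lrp1b. HRS over input ranged from -0.26 to -0.13, from -0.26 to -0.097 and from -0.24 to -0.061 in these genes. Loop over input ranged from -0.15 to -0.090, from -0.21 to -0.12 and from -0.31 to -0.18, and from -0.093 to 0.032 in Csmd1.

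The replicate number as a block, the pairing of same-numbered libraries, called Cntnap2 against Loop (-0.14, and -0.20 with length corrected) and Macrod2 with length corrected (-0.17). It left Lrp1b uncalled and corrected at -0.086, and changed no other window call. The called length classes rose to 11, for which no genome-wide share was taken. Without both replicate 3 fractions, chosen after seeing the data, Cntnap2 (-0.074, corrected -0.13), Macrod2 (corrected -0.077) and Lrp1b (0.10, corrected -0.0060) passed or changed sign. In that fit 10 length classes and 92 bins higher in HRS were called, again with no such share. With length corrected and 1 library left out, HRS over Loop was called in Cntnap2 without HRS replicate 2 (-0.23) and 3 (-0.12). Lrp1b was corrected to -0.080, and to -0.11, -0.12, -0.077, -0.070 and -0.094 without HRS replicates 1 and 2 and Loop replicates 1, 2 and 3, but to 0.011 without HRS replicate 3. On fragments over 200 bp Lrp1b was at -0.023. On the scale of its own chromosome, with length corrected, Lrp1b was at -0.091 and Cntnap2 was called (-0.16).

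Against input, HRS lost its call in Cntnap2 with library totals (-0.29), at an adjusted p of 0.01 (-0.21), on fragments over 200 bp (-0.20), on its own chromosome (-0.16) and, corrected, without HRS replicate 1 (-0.23) or the D12 (-0.21) or D21 input (-0.20). Macrod2 gained a call on its own chromosome (-0.21, corrected -0.20). For Loop over input, the own-chromosome scale called Cntnap2 (-0.11), Macrod2 (-0.16) and Lrp1b (-0.25), and DESeq2 called Lrp1b (-0.23). Csmd1, uncalled throughout, lay on both sides of 0. With length corrected it was at 0.029, and at 0.070, 0.067, 0.018 and 0.084 without Loop replicates 1 and 2 and inputs D12 and D21. Corrected, it was at -0.053 without Loop replicate 3 and at -0.014 without the D0 input. On its own chromosome Csmd1 was at -0.14 (edgeR adjusted p 0.0848), and at -0.076 corrected. On fragments over 200 bp it was at 0.025. Corrected, Cntnap2 was above 0 without Loop replicate 2 (0.0044) and the D21 input (0.016), and Macrod2 without the D12 input (0.013).

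For HRS over Loop, bins called higher and lower over the 4 genes were 41 and 133 of 701. Percentages in brackets are the genome-wide shares higher and lower, here 17.8% and 20.4%. The counts were 11 and 85 at an adjusted p of 0.01, and 6 and 59 with length corrected (15% and 8.43%). At 100 kb they were 4 and 15 of 71 (24% and 25.5%), and 2 and 13 corrected (24% and 21.2%). For HRS over input they were 4 and 74 of 705 (15.2% and 9.16%), 2 and 22 at 0.01, and 2 and 124 with library totals. At 100 kb they were 1 and 15 (25.1% and 16.8%), and 2 and 14 corrected (25.4% and 17.6%). In DESeq2 47 of 691 were lower (6.3%). For Loop over input they were 86 and 178 of 705 (21.5% and 18%), 45 and 71 at 0.01, and 2 and 0 corrected (0.266% and 0.0782%). At 100 kb they were 2 and 23 (13.1% and 13.7%), and 0 and 0 corrected (0.0315% and 0.0118%). With library totals 48 were higher. No genome-wide share was taken at 0.01, with library totals or with a library left out. Without each library in turn the counts higher and lower ranged from 16 to 68 and from 103 to 130, from 2 to 13 and from 23 to 82, and from 48 to 94 and from 88 to 167 in the same order. Called length classes ranged from 4 to 7 for HRS over Loop and from 4 to 9 for HRS over input. With 3 libraries a group, log2 window differences smaller than the distance from the estimate to its interval's bound could not be told from 0, and a 10 kb bin rests on few fragments.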
